A study of Mus musculus with 12 samples.

Results

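The MEIS, PBX and PKNOX proteins are homeodomain transcription factors of the TALE class, named for a loop extension that their homeodomains share, and they act as DNA-binding cofactors of the HOX proteins. Their genes were compared here between TPS cells, a mouse stem cell state with totipotent-like features, and EPS cells, which are extended pluripotent stem cells. The genes were chosen as members of this family, with earlier results of these data known. Of the 55401 genes in the deposited count data 8 are described, namely Meis1, Meis2, Meis3, Pbx2, Pbx3, Pbx4, Pknox1 and Pknox2. All 8 passed the filter on low counts that left 17468 genes for testing.

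TPS cells were kept on feeder cells in a medium with 4 small molecules (the labels call it VCED and the paper calls it CPEC), which are CD1530 (an agonist of the retinoic acid receptor RARγ), VPA (an inhibitor of histone deacetylases), EPZ004777 (an inhibitor of the methyltransferase DOT1L) and a GSK3 inhibitor. EPS cells were kept on feeder cells in LCDM medium, so feeder cells were common to both groups, and the paper describes those of TPS cells as inactivated mouse embryonic fibroblasts. Polyadenylated RNA of 3 lines of each cell type was sequenced in 2 technical replicates per line, which gave 12 libraries of 13676051 to 21821707 counts. The origin of each sequenced TPS line, and whether same-numbered TPS and EPS lines are related, is not given in the sources used here, and the medium and the cell state cannot be told apart in this design.

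In the general account of these proteins, PBX binds DNA together with a HOX protein and MEIS or PKNOX joins the pair, so that the complex reads a longer DNA site than HOX alone. MEIS and PKNOX compete for the same surface of PBX, and their binding holds PBX in the nucleus. Meis1 and Meis2 are known for roles in blood, limb, eye and hindbrain development, and Meis2 is known to respond to retinoic acid.

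Counts of both technical replicates of a line were summed and the 6 lines were compared by edgeR's quasi-likelihood test, with p-values adjusted over all tested genes and called under 0.05. Levels are in CPM, that is, counts scaled to a common library size (counts per 1000000 reads counted) after TMM adjustment. Among all tested genes 21.7% were called, 14.4% as higher and 7.34% as lower in TPS cells. Of all called genes 66.2% were higher in TPS cells, or 80% when lines were scaled by library size alone, which moved the median log2 fold change over the whole test to 0.144. The 4 cofactor genes called below were called under both scalings.

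Of the cofactor genes, 4 of 8 rose in TPS cells by edgeR, which were Meis1, Meis2, Meis3 and Pbx2. DESeq2 called 5 as higher, with Pbx3 as the added gene (adjusted p = 0.0475), and limma-voom 3, without Pbx2 (adjusted p = 0.0505), and 0 fell by any of these tools. Pbx3, Pbx4, Pknox1 and Pknox2 did not pass edgeR's test. An unadjusted p under 0.05 was found for 6 of the 8 genes, 5 of them higher and 1 lower in TPS cells. Among all tested genes that share is at least the 21.7% called after adjustment, and its full size was not computed. The lowest TPS line exceeded the highest EPS line for 5 genes (Meis1, Meis2, Meis3, Pbx2 and Pbx3), against 23.5% of all tested genes, and the reverse held for 1 gene, Pknox1, against 19.1%. The lines overlapped for Pbx4 and Pknox2. The median log2 fold change was 0.67 over the 8 genes and -0.00376 over all tested genes. In these bulk samples, fewer cells that express a gene and less RNA per cell cannot be told apart.

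**Figure D1:**
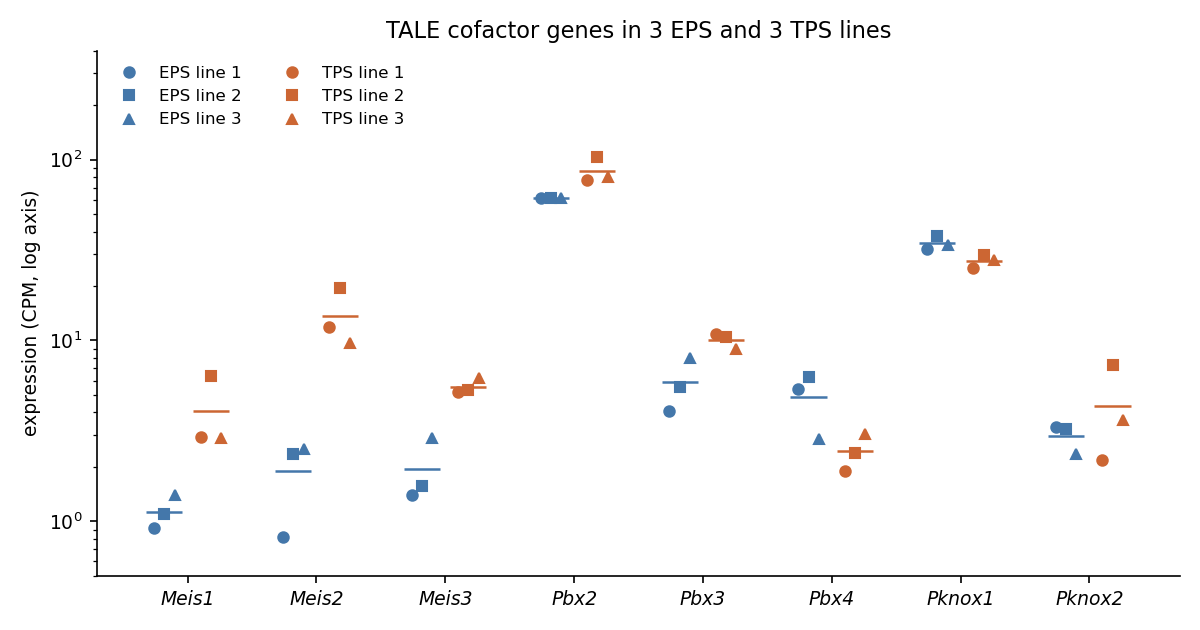
Expression of the 8 cofactor genes in CPM on a log axis, with 1 point for each of the 3 EPS lines (blue) and 3 TPS lines (orange) and a bar at the mean of each group. For Meis1, Meis2, Meis3, Pbx2 and Pbx3 all TPS points lie above all EPS points, and Pbx2 has the highest values of both groups.

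The 3 MEIS genes had the largest log2 fold changes of the 8 genes. Meis1 (ENSMUSG00000020160, chr11:18879817-19018985, minus strand, GRCm38) encodes a factor known for its part in blood stem cells and in leukaemia driven with HOXA9. It measured 2.94, 6.34 and 2.89 CPM in TPS lines 1, 2 and 3, and 0.914, 1.09 and 1.39 CPM in EPS lines 1, 2 and 3. These levels rested on 118, 245 and 91 counts in the TPS lines and on 28, 37 and 49 counts in the EPS lines. TPS line 2 stood well above the other TPS lines, and no EPS line reached any of them. The means were 4.06 ± 1.98 CPM in TPS and 1.13 ± 0.243 CPM in EPS (SD, n = 3 lines each), a 3.58-fold difference with a log2 fold change of 1.84 (SE 0.43, adjusted p = 0.0227 by edgeR). The call was lost without TPS line 2 (log2 fold change 1.36, adjusted p = 0.0566), without EPS line 1 (1.68, adjusted p = 0.0684) and without EPS line 2 (1.79, adjusted p = 0.0703). It held without each of the other 3 lines, but was also lost with the line number as a replicate block (1.76, adjusted p = 0.0523).

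Meis2 (ENSMUSG00000027210, chr2:115863064-116065839, minus strand) encodes a close relative of MEIS1 and differed most of the 8 genes on the log2 scale. TPS lines 1, 2 and 3 had 11.8, 19.4 and 9.71 CPM, and EPS lines 1, 2 and 3 had 0.816, 2.35 and 2.5 CPM. The lowest TPS line was thus well above the highest EPS line, TPS line 2 was again the highest, and EPS line 1 was the lowest. The TPS mean of 13.6 ± 5.09 CPM was 7.17-fold the EPS mean of 1.89 ± 0.934 CPM by the fit (SD, n = 3 lines each), a log2 fold change of 2.84 (SE 0.484, adjusted p = 0.00821). Of all tested genes, 95.1% had a lower log2 fold change. Meis2 was the only one of the 8 genes that kept its call without each line in turn, with log2 fold changes of 2.46 to 3.08 and adjusted p-values of 0.0159 to 0.0292.

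Meis3 (ENSMUSG00000041420, chr7:16175090-16186504, plus strand), a MEIS gene known from hindbrain development, had the tightest TPS values of this subfamily. TPS lines 1, 2 and 3 measured 5.19, 5.33 and 6.16 CPM, and EPS lines 1, 2 and 3 measured 1.4, 1.56 and 2.9 CPM. The groups did not overlap, and EPS line 3 was nearer to the TPS lines than its fellows were. Its mean was 5.56 ± 0.523 CPM in TPS and 1.95 ± 0.824 CPM in EPS (SD, n = 3 lines each), with a log2 fold change of 1.51 (SE 0.362, adjusted p = 0.0249). Leaving out EPS line 3 kept the call (1.89, adjusted p = 0.0174). It was lost without TPS line 1 (1.55, adjusted p = 0.0556), TPS line 2 (1.53, adjusted p = 0.0512), TPS line 3 (1.42, adjusted p = 0.0815), EPS line 1 (1.29, adjusted p = 0.0671) and EPS line 2 (1.34, adjusted p = 0.0783), while the direction was the same in each of these fits. It was also lost with technical replicate 1 alone (1.19, adjusted p = 0.0602).

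PBX proteins are the partners that contact HOX proteins directly, and 1 of the 3 PBX genes described here rose by edgeR (2 by DESeq2 and 0 by limma-voom). Pbx2 (ENSMUSG00000034673, chr17:34591266-34597400, plus strand), a broadly expressed PBX gene, measured 77.6, 103 and 80.4 CPM in TPS lines 1, 2 and 3. In EPS lines 1, 2 and 3 it measured 61, 61.5 and 61.3 CPM, so the EPS lines were almost equal and all TPS lines were above them. The TPS mean of 87 ± 14 CPM exceeded the EPS mean of 61.3 ± 0.217 CPM (SD, n = 3 lines each) by 1.42-fold in the fit, a log2 fold change of 0.51 (SE 0.146, adjusted p = 0.0438). This small difference lost its call when any of the 6 lines was left out, with adjusted p-values from 0.06 without TPS line 1 to 0.124 without TPS line 2, where the log2 fold change was 0.36. The call was also lost with no filter on low counts (0.48, adjusted p = 0.079). Pbx2 shares 227 exonic bases with Gpsm3 on the same strand, which had 75 to 164 counts per library, and the part of those reads in the Pbx2 counts was not tested.

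Pbx3 (ENSMUSG00000038718, chr2:34171457-34373142, minus strand), a PBX gene known from the developing nervous system, measured 10.9, 10.4 and 9.02 CPM in TPS lines 1, 2 and 3 and 4.08, 5.56 and 7.99 CPM in EPS lines 1, 2 and 3. All TPS lines were above all EPS lines, but EPS line 3 came close to TPS line 3. The log2 fold change of 0.78 (SE 0.297) did not pass edgeR's test (adjusted p = 0.0983). Pbx4 (ENSMUSG00000031860, chr8:69832491-69872292, plus strand), known mainly from the testis, had the opposite sign. It measured 1.9, 2.38 and 3.02 CPM in TPS lines 1, 2 and 3 and 5.38, 6.29 and 2.84 CPM in EPS lines 1, 2 and 3. EPS line 3 fell among the TPS lines, so the groups overlapped, and the log2 fold change of -0.99 (SE 0.385) did not pass the test (adjusted p = 0.103). Without EPS line 3 it was -1.28 and just passed (adjusted p = 0.0497).

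The PKNOX genes encode the alternative partners of PBX, and neither passed the test. Pknox1 (ENSMUSG00000006705, chr17:31564734-31607693, plus strand), also called Prep1 and expressed in most tissues, measured 25.2, 29.7 and 28 CPM in TPS lines 1, 2 and 3 and 32.2, 37.6 and 33.8 CPM in EPS lines 1, 2 and 3. All TPS lines were below all EPS lines, the only gene of the 8 with that order. Its means were 27.6 ± 2.29 and 34.5 ± 2.78 CPM (SD, n = 3 lines each), and the log2 fold change was -0.32 (SE 0.148, adjusted p = 0.159). Pknox2 (ENSMUSG00000035934, chr9:36890982-37147407, minus strand) measured 2.17, 7.27 and 3.65 CPM in TPS lines 1, 2 and 3 and 3.3, 3.24 and 2.36 CPM in EPS lines 1, 2 and 3. TPS line 2 was above all other lines and TPS line 1 was the lowest of the 6. Its log2 fold change of 0.56 (SE 0.462, adjusted p = 0.417) came to -0.03 without TPS line 2.

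**Figure D2:**
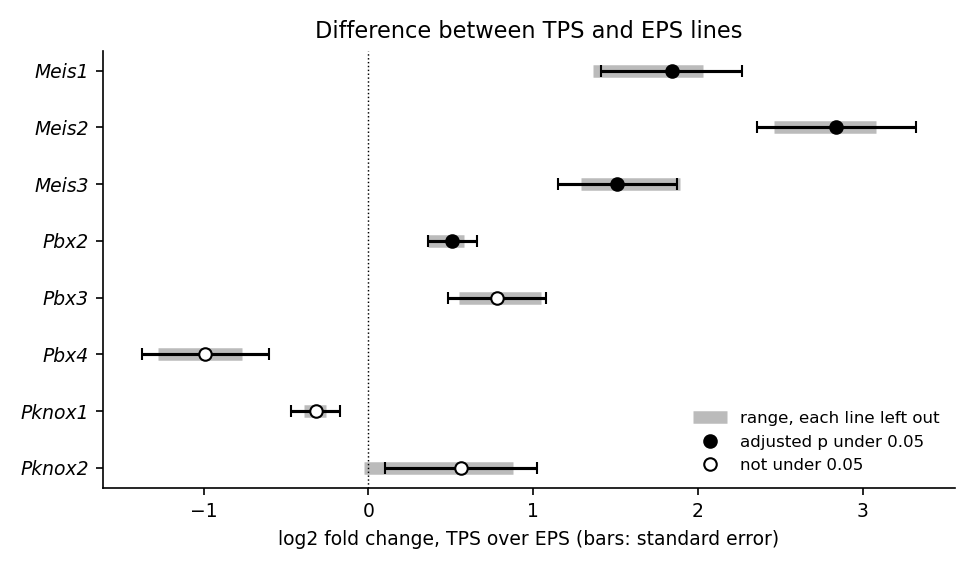
The log2 fold change of each cofactor gene, TPS over EPS, with its standard error as a bar, filled points for an adjusted p under 0.05, and a grey band for the range when each of the 6 lines was left out in turn. The 3 MEIS genes lie at 1.51 to 2.84, Pbx2 at 0.51, and the grey band of Pknox2 touches 0.

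TPS line 2 had the highest level of Meis1, Meis2, Pbx2 and Pknox2, and EPS line 1 had the lowest level of Meis1, Meis2, Meis3, Pbx3 and, by a small margin, Pbx2. Technical replicates of a line were compared in the same way. Over the 48 pairs of technical replicates (8 genes in 6 lines) the larger level was a median of 1.08 times the smaller, and at most 2.11 times, in Pbx4 of TPS line 1 (2.73 and 1.29 CPM). In 7 of the 48 pairs the difference exceeded 2 times its Poisson counting error, and in 2 pairs it exceeded 3 times that error. These 2 pairs were Pbx4 in TPS line 1 and Meis3 in TPS line 2 (4.09 and 6.48 CPM). No other gene was nearly identical to one of the 8 over most of its transcript. Gm37818 shares 1029 exonic bases with Meis1 on the same strand and had 0 to 1 counts per library, and AC166172.4, antisense to Pknox1, shares 155 exonic bases with it and had 1 to 13 counts. The closest match between members was 78.7% identity over 826 bases, for Pbx2 and Pbx3. P-values here measure the spread between lines, and the sources used here do not say how far the lines differ in origin.

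**Figure D3:**
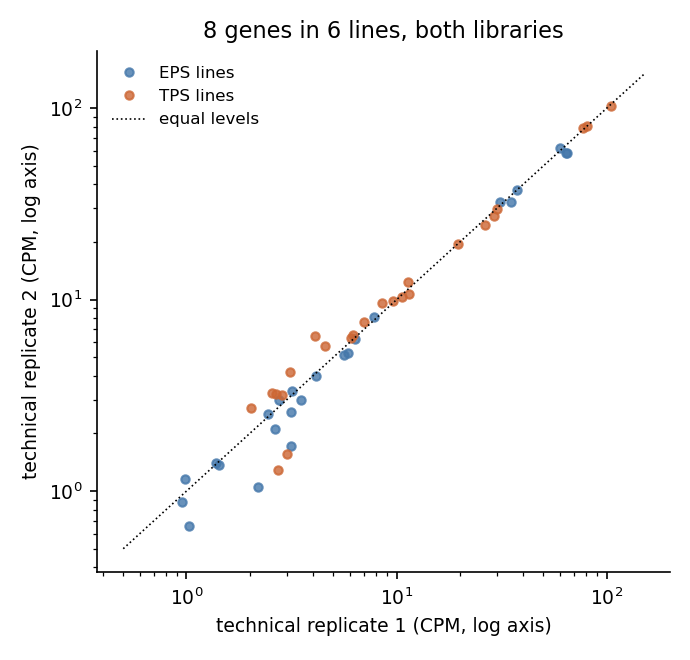
Level of each cofactor gene in technical replicate 1 (x axis) and technical replicate 2 (y axis) of the same line, both in CPM on log axes, with blue points for EPS lines, orange points for TPS lines and a dotted line for equal levels. Most of the 48 points lie near the line, and the points farthest from it are at low levels.

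To compare the 8 genes with each other, levels were divided by the length of the gene's exons (CPM per kb). Pbx2 had the highest level of the 8 genes per kb in both groups, 23.9 ± 3.83 CPM per kb in TPS and 16.8 ± 0.0577 in EPS (SD, n = 3 lines each), and Pknox1 was second, with 3.99 ± 0.333 and 4.98 ± 0.401. Below these, the order in EPS lines was Pbx4 at 2.18, Pbx3 at 0.963, Meis3 at 0.616, Pknox2 at 0.287, Meis2 at 0.157 and Meis1 at 0.107 CPM per kb. In this order the ranges of Pbx4 and Pbx3, of Pbx3 and Meis3, and of Meis2 and Meis1 overlapped, but Pbx3 was above Meis3 within each EPS line. In TPS lines the order was Meis3 at 1.75, Pbx3 at 1.65, Meis2 at 1.13, Pbx4 at 1.09, Pknox2 at 0.422 and Meis1 at 0.385 CPM per kb. The ranges of Meis3, Pbx3, Meis2 and Pbx4 overlapped each with its neighbour, and those of Pknox2 and Meis1 overlapped too, but Pbx3 was above Meis2 within each TPS line. The order below Pknox1 changed with the length used. Per kb of coding sequence it was Pbx3 at 4.43, Pbx4 at 4.26, Pknox2 at 2.07, Meis3 at 1.68, Meis2 at 1.26 and Meis1 at 0.717 CPM per kb in EPS lines. In TPS lines it was then Meis2 at 9.08, Pbx3 at 7.61, Meis3 at 4.77, Pknox2 at 3.04, Meis1 at 2.57 and Pbx4 at 2.14 CPM per kb, while Pbx2 and Pknox1 kept the first places in both groups.

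The make-up of the cofactor transcripts was then expressed as shares of the summed level per kb of the 8 genes. This sum leaves out the family gene that is not reported here, so the shares hold for the 8 genes only. The MEIS genes held 9.42, 9.73 and 9.35% of the sum in TPS lines 1, 2 and 3 and 2.35, 2.91 and 4.87% in EPS lines 1, 2 and 3. The PKNOX genes held 12.5, 12.5 and 13.6% in the TPS lines and 19.5, 21.1 and 19.8% in the EPS lines. Both shares were thus apart between the groups, in opposite directions. The difference, TPS minus EPS, was 6.12 percentage points for the MEIS share and -7.28 for the PKNOX share, or 9.7 and -11.6 points with coding length. The exact two-sided permutation test over the 6 lines gave p = 0.1 for each, the smallest p that 3 lines against 3 allow (0.15 after adjustment over the 3 shares). The PBX genes held 78.1, 77.8 and 77.1% in TPS lines and 78.1, 76 and 75.3% in EPS lines, a difference of 1.16 points (exact permutation p = 0.4). This small difference was 1.98 points without EPS line 1, 0.582 without EPS line 3 and 1.88 with coding length. A share rises when another falls, so these 3 values are not independent.

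Within the PBX share, again by exon length, Pbx2 made up 68.3 to 70.8% of the summed level in TPS lines and 62.2 to 66% in EPS lines. Pbx4 made up 2.69 to 4.21% in TPS lines and 9.55, 10.5 and 4.98% in EPS lines 1, 2 and 3. The level of Pbx3 per kb was 2.08, 1.59 and 1.08 times that of Pbx4 in TPS lines 1, 2 and 3, and 0.275, 0.321 and 1.02 times in EPS lines 1, 2 and 3, so that EPS line 3 was close to TPS line 3 in this ratio. Per kb of coding sequence the ratios were 4.91, 3.74 and 2.56 in TPS lines and 0.648, 0.755 and 2.4 in EPS lines. The level of Meis2 per kb was 3.49, 2.67 and 2.94 times that of Meis1 in TPS lines and 0.781, 1.89 and 1.57 times in EPS lines. Meis2 thus exceeded Meis1 per kb in every TPS line but not in EPS line 1. The summed level of the 8 genes was 30.7, 40 and 32.3 CPM per kb in TPS lines and 25.4, 27.2 and 25.8 in EPS lines, with no overlap (exact permutation p = 0.1, the smallest possible here). Pbx2 made up most of this sum in every line, so the sum largely follows that gene.

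**Figure D4:**
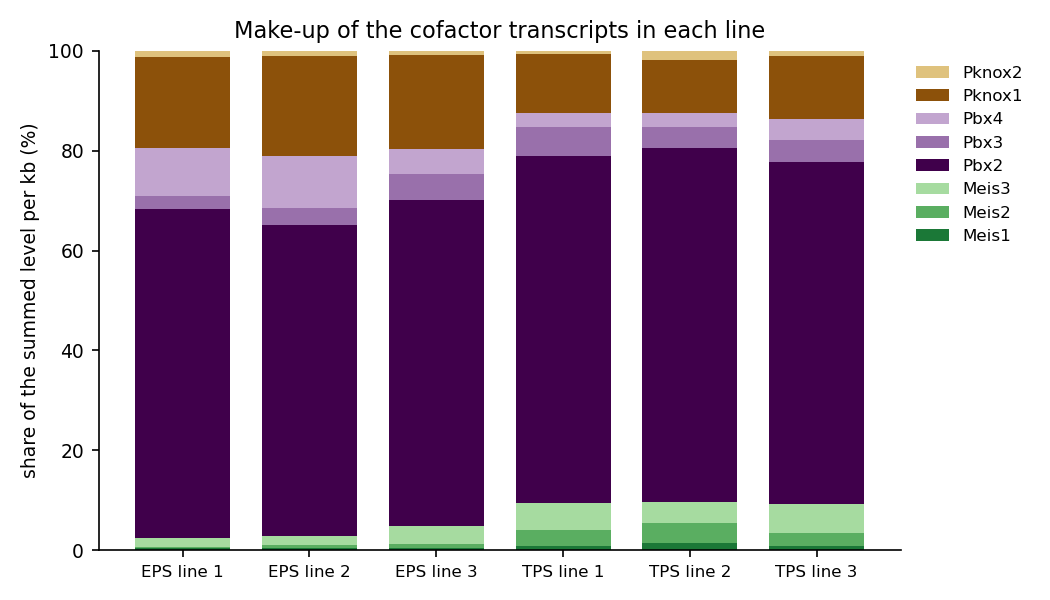
Stacked bars of the share (in %) that each of the 8 genes holds in the summed CPM per kb of these genes, with 1 bar for each EPS and TPS line. The green MEIS segments reach 9.35 to 9.73% in TPS lines and 2.35 to 4.87% in EPS lines, and the brown PKNOX segments are smaller in TPS lines.

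The DNA before the RefSeq gene start was examined for 5 of the 8 genes that had an entry (Meis1, Meis2, Meis3, Pbx2 and Pbx4). The 250 bases before the start of Meis1 (chr11:19018970-19019219, GRCm38.p6, minus strand) and of Pbx2 (chr17:34592009-34592258, plus strand) are printed, because both genes rose, by very unequal amounts, and because these windows lie almost wholly outside annotated exons. The window of Meis1 overlaps an annotated exon of the gene by 16 bases and that of Pbx2 by 0 bases, as the Pbx2 window lies inside the longer GENCODE gene but in no exon of it. Each is written 5′ to 3′ on the strand of the gene with CG dinucleotides in capitals.
Meis1: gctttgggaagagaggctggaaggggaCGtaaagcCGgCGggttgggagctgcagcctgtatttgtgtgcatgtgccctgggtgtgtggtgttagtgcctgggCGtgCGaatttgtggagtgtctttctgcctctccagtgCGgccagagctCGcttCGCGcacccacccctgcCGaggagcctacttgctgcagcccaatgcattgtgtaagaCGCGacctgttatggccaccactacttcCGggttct
Pbx2: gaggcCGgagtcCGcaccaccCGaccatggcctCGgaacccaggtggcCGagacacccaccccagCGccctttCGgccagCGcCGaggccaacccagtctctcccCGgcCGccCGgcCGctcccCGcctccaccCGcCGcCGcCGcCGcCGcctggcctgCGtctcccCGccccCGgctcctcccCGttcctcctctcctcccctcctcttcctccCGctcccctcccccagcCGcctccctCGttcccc
The window of Pbx2 held 27 CG dinucleotides with a GC content of 77.6%, and that of Meis1 held 13 with a GC content of 59.6%. Fewer CG dinucleotides were found in 91.4% of the 32851 RefSeq windows of this length than in that of Pbx2, and in 68.5% than in that of Meis1. Meis2 held 7, Meis3 held 12 and Pbx4 held 12, beside a median of 6 over all windows, but 170, 160 and 133 of the 250 bases of these 3 windows lie in annotated exons of the gene. Both strands of the 250 bases were searched for TGACAG, the letters that MEIS and PKNOX proteins read, for TGATNNAT, a PBX and HOX site, and for AGGTCA, a site read by retinoic acid receptors, usually as a repeat. These occurred in 15.9%, 7.68% and 14% of all windows, and in 0 of the 5 windows of the cofactor genes.

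Other genes of the same network were taken from lists of HOX genes, partners and targets, chosen with earlier results of these data known. In these and the later lists a gene could pass the filter on low counts through a single group. Hoxa5 did so through the TPS lines and Hoxc12 through the EPS lines, so the shares of tested genes called are descriptions only. Of the 39 HOX genes, 28 were tested, and 23 of these rose and 2 fell in TPS cells, beside 14.4% and 7.34% of all tested genes. The median log2 fold change of the tested HOX genes was 2.67, or 2.51 with genes set to their bound where no library of a group had more than 3 counts. Hoxb1, a hindbrain HOX gene and a known target of its own complex with PBX, measured 1.52, 13 and 18.2 CPM in TPS lines 1, 2 and 3 and 0, 0.382 and 0.0284 CPM in EPS lines 1, 2 and 3 (log2 fold change 6.26, SE 1.29, adjusted p = 0.0152). Hoxa5 had 2.45 ± 1.12 CPM in TPS and 0.157 ± 0.0862 CPM in EPS (SD, n = 3 lines each; adjusted p = 0.00576). The genes that fell were Hoxc12, with 0, 0.259 and 0 CPM in TPS lines and 2.12, 0.882 and 1.17 CPM in EPS lines (adjusted p = 0.0398), and Hoxc13, at 2.47 ± 1.25 against 9.17 ± 2.68 CPM (adjusted p = 0.0201).

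Of the other TALE homeobox genes, 8 of 9 were tested, and 4 rose and 1 fell. These are 50% higher and 12.5% lower, beside 14.4% and 7.34% of all tested genes. The median log2 fold change was 1.57, or 1.17 with 1 gene at its bound. Those that rose were the Iroquois genes Irx1, Irx3, Irx4 and Irx5, with adjusted p-values of 0.0354, 0.0167, 0.0157 and 0.0229. The log2 fold changes of Irx1, Irx3 and Irx5 were 2.14, 2.75 and 2.49. Irx4 is the gene at its bound, with 0.603 ± 0.376 CPM in TPS (SD, n = 3 lines) and at most 2 counts per library in EPS, so it was at least 2.53-fold higher against a floor of 3 counts per library. Tgif1, a TALE repressor of TGF-β and retinoic acid responses, fell by 0.66 on the log2 scale (adjusted p = 0.0235), from 162 ± 13.7 CPM in EPS to 102 ± 17.9 CPM in TPS.

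Of 13 genes for proteins that bind or restrain MEIS and PBX, 2 rose and 0 fell, with a median log2 fold change of -0.141. That is 15.4% higher, near the 14.4% of all tested genes. Those that rose were Pbxip1, whose product binds PBX and keeps it from DNA, at 48.5 ± 10.3 against 23.5 ± 5.17 CPM (SD, n = 3 lines each; log2 fold change 1.04, adjusted p = 0.0181), and Myh10, a non-muscle myosin that can hold PBX in the cytoplasm, at 146 ± 64 against 63.9 ± 3.38 CPM (1.2, adjusted p = 0.0233). Among partners of PBX or MEIS outside the HOX clusters, 1 of 6 tested genes rose, a share of 16.7% that is also near that background, and 0 fell. This gene was Emx2 (log2 fold change 2.43, adjusted p = 0.0219).

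Among 12 genes known as targets of MEIS or PBX complexes, 8 were tested, 4 rose and 1 fell. The shares of 50% higher and 12.5% lower stand beside 14.4% and 7.34% of all tested genes. Hoxb1, Hoxa3, Hoxb4 and Pf4 rose, the HOX genes being counted above as well, and Fgf10 fell (8.27 ± 2.43 CPM in EPS, 2.84 ± 1.26 CPM in TPS, adjusted p = 0.0348). Pf4, a platelet chemokine gene that is also expressed by macrophages, measured 184, 27.1 and 53.7 CPM in TPS lines 1, 2 and 3, while EPS lines had 15.3 to 18.7 CPM (adjusted p = 0.0361). Of the 6 blood markers, Ptprc (10.6, 2.07 and 4.76 CPM) and Spi1 (11.6, 2.23 and 5.87 CPM) had the same order among the TPS lines, while Cd34, Gata1 and Hba-a1 had other orders and Hbb-bs had no count. The part of blood cells in the Pf4 level was not tested.

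Since the TPS medium held a retinoic acid receptor agonist, a list of 16 retinoic acid responsive genes was set beside the cofactors. Of 15 tested genes 11 rose (73.3%, beside 14.4% of all tested genes) and 0 fell. The median log2 fold change was 2.93, or 2.15 with 1 gene at its bound. Stra8, a retinoic acid induced gene of germ cells, measured 75.3, 54.3 and 56.3 CPM in TPS lines, while EPS lines had 0.0853 to 0.359 CPM (log2 fold change 7.98, SE 0.422, adjusted p = 0.000152). Rarb, itself a receptor gene, measured 0.921 to 1.09 CPM in TPS lines and had no count in EPS lines. Stra6, which encodes a receptor for retinol-binding protein, rose by a log2 fold change of 5.72 (SE 0.609, adjusted p = 0.00222). The part of the agonist, or of any other component of the media, in the cofactor differences cannot be told apart from the other differences between the groups.

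Cell type markers were measured beside the cofactors. Of 16 fibroblast genes, 10 of 15 tested rose (66.7%, beside 14.4% of all tested genes) and 0 fell. The median log2 fold change of these genes was 2.07, and S100a4 alone had no count. Their summed level was 6280, 3480 and 3660 CPM in TPS lines 1, 2 and 3 and 324, 1300 and 1380 CPM in EPS lines 1, 2 and 3. EPS line 1 was thus the lowest both for this sum and for Meis1, Meis2, Meis3, Pbx2 and Pbx3. Over EPS lines 1, 2 and 3, Meis1, Meis2, Meis3 and Pbx3 increased in the same order as the sum, and Pbx2 did not. Among TPS lines the sum was highest in line 1, as Pbx3 was, whereas Meis1, Meis2 and Pbx2 were highest in line 2 and Meis3 in line 3. The part of fibroblast RNA in the cofactor differences was not tested. Of 8 trophectoderm genes, 2 of 7 tested rose (28.6%, beside 14.4% of all tested genes) and 0 fell. Their sum was 145, 622 and 220 CPM in TPS lines and 167, 185 and 106 CPM in EPS lines. It was highest in TPS line 2, the line that was also highest for Meis1, Meis2, Pbx2 and Pknox2, and its part in their levels was not tested. That height came from the keratin genes Krt8, Krt18 and Krt7, which summed to 14.7, 474 and 61.6 CPM in TPS lines 1, 2 and 3. The other 5 genes of the list summed to 130, 148 and 158 CPM.

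The 2-cell-like and pluripotency lists were set beside the labels of the groups. Of 7 tested genes of 2-cell-like cells, 7 rose (100%, beside 14.4% of all tested genes). Their list summed to 172 to 219 CPM in TPS lines and 0.0588 to 0.0979 CPM in EPS lines. All 7 had at most 3 counts in any EPS library, so they passed the filter through the TPS lines. The paper named Gm5662, Zscan4c and Zfp352 from its own bulk comparison of TPS with EPS cells, so this list is no independent check of the labels. Of 8 pluripotency genes 5 fell (62.5%, beside 7.34% of all tested genes) and 0 rose. Their sum was 3280 to 3740 CPM in TPS lines and 6030 to 8070 CPM in EPS lines, so both groups held pluripotency transcripts. The sum of 8 mesoderm genes was 6.66, 38.3 and 39.8 CPM in TPS lines, while EPS lines had 9.03 to 12.3 CPM. In this list 2 of 6 tested genes were higher (33.3%, beside 14.4% of all tested genes). The sums were 43.5 to 74.9 and 72.4 to 128 CPM for neural genes, 106 to 142 and 138 to 194 CPM for primitive endoderm genes, and 9.89 to 30.2 and 8.52 to 15.7 CPM for blood genes, in TPS and EPS lines respectively. Lama1, which fell, was most of the primitive endoderm sum in EPS lines (136 CPM, against 38.3 CPM in TPS lines). By contrast, 4 of the 8 genes rose (Gata6, Sox17, Dab2 and Pdgfra) and the median log2 fold change was 1.93. Shares of this list were 50% higher and 12.5% lower, beside 14.4% and 7.34% of all tested genes. Of the neural genes 1 of 6 tested rose (Tubb3, 18.6 CPM in EPS and 42.9 CPM in TPS) and 1 fell (Olig2, 54.8 and 4.88 CPM), with a median log2 fold change of 0.196, and the neural sums of the groups overlapped. The shares of 16.7% higher and 16.7% lower stand beside 14.4% and 7.34% of all tested genes. Of the blood genes 0 of 4 tested passed edgeR's test, with 1 at an unadjusted p under 0.05 and 1 called by DESeq2. TPS line 2 had the lowest of the TPS sums in each of these 3 lists, but single genes differed. Of the 8 primitive endoderm genes, 5 were highest among TPS lines in line 2, as Meis1 and Meis2 were (Gata4, Gata6, Sox17, Foxa2 and Lama1), and the low sum came from Dab2 (51.4, 18.8 and 31.1 CPM in TPS lines 1, 2 and 3) and Pdgfra (49, 12.5 and 31.2 CPM). In the lists of partners, binding proteins, retinoic acid responsive genes, fibroblast, trophectoderm and 2-cell-like genes, the count of 0 lower genes by edgeR was also 0 at an unadjusted p under 0.05, by DESeq2 and by limma-voom.

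**Figure D5:**
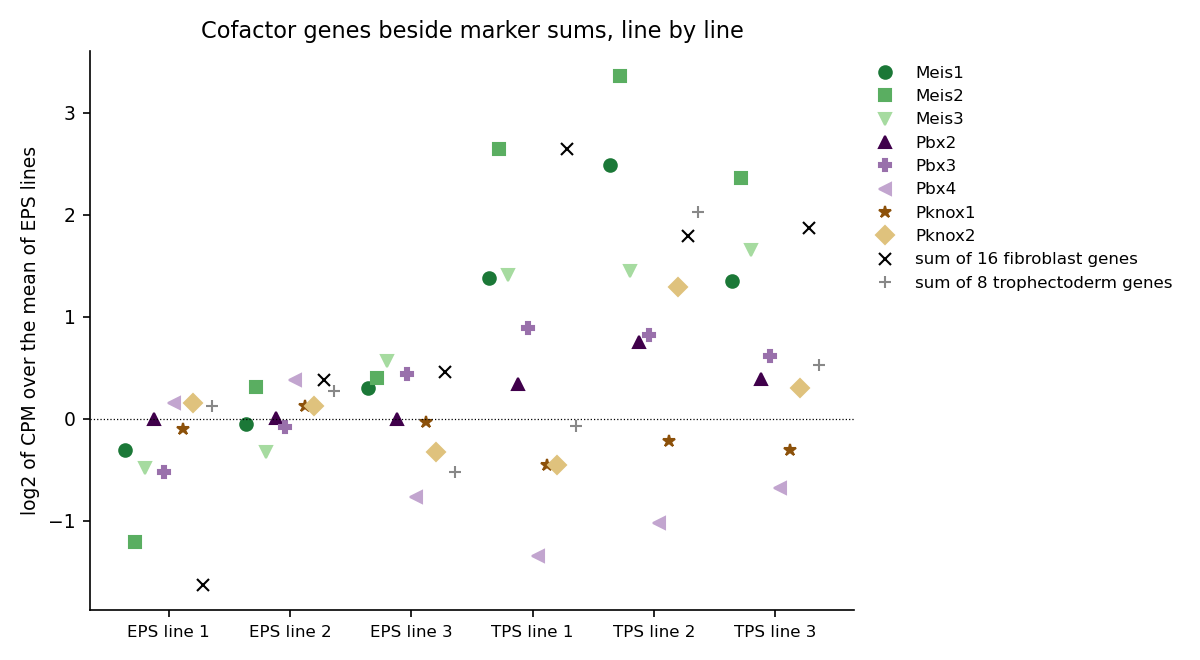
Level of each of the 8 cofactor genes, and the summed CPM of 16 fibroblast genes (crosses) and 8 trophectoderm genes (plus signs), in each line as log2 of its ratio to the mean of the EPS lines. Among TPS lines the fibroblast sum and Pbx3 are highest in line 1, Meis1, Meis2, Pbx2, Pknox1, Pknox2 and the trophectoderm sum in line 2, and Meis3 and Pbx4 in line 3.

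Genes whose levels resembled those of the called cofactors most were sought over the 12 libraries by Pearson's r of log2(CPM + 1). Genes of the family and genes with Gm, Rik or accession-like symbols were left out of this search. These values describe libraries that share 6 lines and 2 groups. Closest to Meis1 were Tpm1 (r = 0.99), a tropomyosin gene, and Arap3 (r = 0.99). Closest to Meis2 were Wls (r = 0.998), which encodes the carrier that WNT ligands need for secretion, and Gas1 (r = 0.992), a hedgehog co-receptor gene. Closest to Meis3 were Arhgef26 (r = 0.971) and Steap1 (r = 0.962), and closest to Pbx2 were Wnt2b (r = 0.988), a WNT ligand gene, and Lmod1 (r = 0.988), a leiomodin gene of smooth muscle. Among the cofactors themselves r was 0.95 for Meis1 and Meis2, 0.977 for Meis1 and Pbx2, 0.927 for Meis2 and Pbx2, and 0.751 for Pbx4 and Pknox1, whereas it was -0.857 for Pbx3 and Pbx4.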

How the data were processed

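RNA-seq libraries of 3 TPS and 3 EPS mouse lines, 2 technical replicates each, were grouped by the submitters' labels. The authors deposited raw read counts per gene, without normalization. The submitters' processing notes name fastp 0.19.7, STAR 2.7.3a and build mm10, and the paper names GRCm38.p6. How reads were counted (tool, annotation release, strand, reads that map to several places) is not given in the sources used here, so reads of overlapping genes could be shared. Of 55401 gene identifiers, 55141 matched GENCODE M21 without their version, which gave symbols and coordinates. The members and all gene lists were chosen with earlier results of these data known, and 1 further gene of the family is not reported here.

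Counts of technical replicates were summed, giving 29877215 to 38466294 per line. Lines were compared with edgeR 4.0.16 in R 4.3.3 (glmQLFit and glmQLFTest, TMM, filterByExpr with a minimum of 10 counts and 15 in total, Benjamini-Hochberg threshold 0.05, two-sided), where the paper used DESeq2. The standard error is the log2 fold change divided by the square root of F. Shares used CPM per kb of exon union. The fit was tested on simulated data. Near-identical copies were sought with blastn 2.17.0 (95% identity over 50% of the transcript). Where no library of a group had more than 3 counts, a gene was set to a bound of 3 counts in the library where these weigh most. The genes named are all 8 members, the 2 searched genes most similar to each called member, at most 3 called genes of largest change per list, and any gene that a sentence turns on. In the retinoic acid list Stra6 was named in place of Hoxb1, which was given under the HOX genes. Beyond this rule, the other called genes of the TALE and target lists, Hoxc13 and the marker genes given with values were named after their values were seen. Same-numbered lines did not deviate together (r = 0.024, -0.116 and 0.0423), so numbers were not taken as pairs. Alternatives were other scalings and filters, DESeq2 1.42.0, limma-voom (limma 3.58.1), single technical replicates, 12 separate libraries, a replicate block, coding length, and leaving out each line.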

Additional observations from a re-analysis of the deposited data

How the results depend on the processing

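Meis2 kept its call in all 11 other settings and all 6 fits that left out a line. Meis1 was called in 10 of 11 settings and 3 of 6 left-out fits, Meis3 in 10 and 1, and Pbx2 in 7 and 0. No member changed sign in any of these fits except Pknox2, at -0.03 without TPS line 2 (range -0.03 to 0.88 over the left-out lines). Over the left-out lines 1 to 3 members were higher and 0 to 1 lower, and 1617 to 2234 of all genes were higher and 493 to 1047 lower. These fits also had fewer samples. With the line number as a replicate block, 2 members were higher (Meis2, adjusted p = 0.0198, and Meis3, adjusted p = 0.04, by edgeR), while Meis1 (log2 fold change 1.76, adjusted p = 0.0523) and Pbx2 (0.5, adjusted p = 0.0825) were not called, and 1714 genes were higher and 721 lower. With no composition factors 745 genes were lower. With the 12 libraries as separate samples, which treats technical replicates as independent, 4067 genes were higher and 3610 lower, 5 members were higher and 2 lower. Technical replicate 1 alone gave 2 members higher, without Meis3 (1.19, adjusted p = 0.0602) and Pbx2 (0.48, adjusted p = 0.0665). DESeq2 gave 3118 genes higher and 1914 lower, and 5 members higher, Pbx3 being added (adjusted p = 0.0475). With coding length the difference in share was 9.7 points for MEIS and -11.6 for PKNOX. Meis1 rested on 28 to 49 counts in EPS lines. Differences between technical replicates exceeded 2 times their Poisson counting error in 7 of 48 pairs, and they do not measure the spread between lines. The cause of the changes between settings was not tested.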
